A study of Homo sapiens with 8 samples.

Results

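The 10 genes described here encode the death ligand TRAIL (TNFSF10), its 4 membrane receptors (TNFRSF10A, TNFRSF10B, TNFRSF10C and TNFRSF10D), the secreted receptor osteoprotegerin (TNFRSF11B), the related death receptor FAS, and the adaptor, caspase and caspase regulator that bind beneath these receptors (FADD, CASP8 and CFLAR). They were picked by name from a table of 21059 genes after the difference between high and low glucose was known. Their differences in that comparison are therefore given as a description, without a test. RNA sequencing was performed on MDA-MB-157, an established breast cancer cell line without estrogen receptor. Cells in T25 flasks were kept for 48 hours in serum-free medium at a glucose level of 5 mM, the low glucose group, or of 25 mM, the high glucose group that models hyperglycemia. Each group had 4 libraries. All groups were grown from the same line, and no library with an osmotic control is among the 8, so the effects of glucose and of osmolarity cannot be told apart. The labels do not say whether the replicates of a group were separate experiments.

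TRAIL is a member of the TNF superfamily that cells carry on their surface or shed. It binds TNFRSF10A (DR4) and TNFRSF10B (DR5), whose cytoplasmic death domains recruit FADD, and FADD in turn gathers procaspase-8, which is activated there and cleaves effector caspases or the BH3 protein BID. TNFRSF10C (DcR1) lacks a cytoplasmic domain, TNFRSF10D (DcR2) has a truncated death domain, and osteoprotegerin is secreted, so that all of them can bind TRAIL without starting the caspase cascade, while c-FLIP, the product of CFLAR, competes with caspase-8 for the same complex. Many breast cancer lines of the mesenchymal, triple-negative type are known to respond to TRAIL.

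Promoter sequence was available for 5 of the 10 genes (CASP8, CFLAR, FADD, FAS and TNFSF10), as 12 RefSeq windows on GRCh38.p14 that run from 250 bases before to 50 bases after an annotated start. These windows were searched on both strands for letters bound by factors that are known to act on death receptor genes, namely AP-1 (TGACTCA), NF-kappaB (GGG and TTTCC set 2 bases apart), the GC box of Sp1 (GGGCGG) and CHOP/ATF4 (TGATGNAA). The AP-1 letters were in 2 of the 12 windows, both of CASP8, and in 4.95% of all 35116 windows. GC boxes were in 7 of the 12 windows, of CASP8, CFLAR, FADD and FAS, and in 45.0% of all windows. Windows of a gene can overlap, and the FAS match within chr10:88990711-88990770 was counted in windows that do, so the windows are not independent. The letters for NF-kappaB (1.91% of all windows) and for CHOP/ATF4 (3.62%) were in none of the 12. Only these exact letters were searched, so sites of the same factors with other letters would be missed. Their absence from the 12 windows is therefore not shown. The following stretches, 60 bases each and read 5′ to 3′ on the plus strand, are shown because CASP8 and CFLAR were higher at high glucose and share the GC box with FADD, whose groups overlapped. Capitals mark the motif, and no printed match overlapped a match to another of the 4 patterns. The first stretch lies at chr2:201233340-201233399, 96 bases before a start of CASP8, and the next at chr2:201260448-201260507, 61 bases before an alternative start of CASP8. The CFLAR stretch lies at chr2:201140107-201140166, 141 bases before an alternative start inside the gene, and the FADD stretch at chr11:70203192-70203251, 77 bases before the start. A match in these windows is a match of letters, and binding was not measured.
CASP8 (GC box): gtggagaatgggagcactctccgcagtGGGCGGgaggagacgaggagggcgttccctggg
CASP8 (AP-1): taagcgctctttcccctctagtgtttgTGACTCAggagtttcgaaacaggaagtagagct
CFLAR (GC boxes): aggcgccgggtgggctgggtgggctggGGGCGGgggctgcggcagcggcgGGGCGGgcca
FADD (GC box): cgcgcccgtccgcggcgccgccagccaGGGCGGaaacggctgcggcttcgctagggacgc

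Values are counts per 1000000 reads after TMM scaling (CPM, TMM being the trimmed mean of M values). The libraries held an estimated 9721684 to 12482592 reads, and the floor, taken as 3 reads, was 0.212 to 0.267 CPM. As a check of the label, ESR1, the estrogen receptor, was at no more than 0.17 CPM in any library. The epithelial keratin KRT18 was at 233 ± 4.85 and 170 ± 18.1 CPM, E-cadherin (CDH1) was near 1 CPM in both groups, and vimentin (VIM), a mesenchymal filament, was at 4090 ± 28.5 CPM (SD, n = 4) in low glucose and 2970 ± 210.0 CPM in high glucose. Of 10 breast and mesenchymal markers, 6 passed an adjusted p of 0.05 (limma), 3 higher and 3 lower. Those lower at high glucose were KRT8, KRT18 and VIM, with log2 changes of -0.57, -0.46 and -0.47. Those higher were the mesenchymal cadherin CDH2 (0.44), the epithelial marker EPCAM (0.54) and GATA3 (0.895, from a mean of 0.123 to 1.09 CPM). Epithelial and mesenchymal markers thus each went both ways. Of 8 markers of other cell types, 6 were in the table and 3 passed, 1 higher and 2 lower at high glucose. Over all genes 46.8% passed. PTPRC, which marks leukocytes, did not exceed 0.178 CPM. The summed level of those 6 markers was 311 to 327 CPM in low glucose and 134 to 160 CPM in high glucose, nearly all of it DCN, a matrix proteoglycan gene of fibroblasts and other mesenchymal cells. The part of these markers in the results below was not tested. In bulk RNA, fewer cells with a transcript and less of it per cell cannot be told apart.

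TRAIL receptor transcripts were higher in cells grown at high glucose, and the transcript with the largest difference of the 10 genes was that of the decoy receptor TNFRSF10D, at 7.23 times its level at low glucose. Both signaling receptors and osteoprotegerin were higher as well, by 1.72 to 2.35 times, and CASP8 and CFLAR by 1.23 and 1.35 times. The libraries of the 2 groups overlapped for TRAIL itself, for TNFRSF10C, for FAS and for FADD. Of the 10 genes, 6 passed an adjusted p of 0.05 in the fit over all genes (limma), all of them higher at high glucose. In the same fit 46.8% of all genes passed, 22.0% higher and 24.8% lower, and among the 11297 genes of at least 5 CPM the share was 66.9%. The same 6 genes had no overlap between the groups, against 44.5% of all genes, 20.9% in the higher and 23.6% in the lower direction, and 65.0% of the genes of at least 5 CPM. Since the genes were chosen with this contrast in view, nothing is read from these counts. The median log2 change of the 10 genes was 0.35, and that of all genes -0.01.

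**Figure D1:**
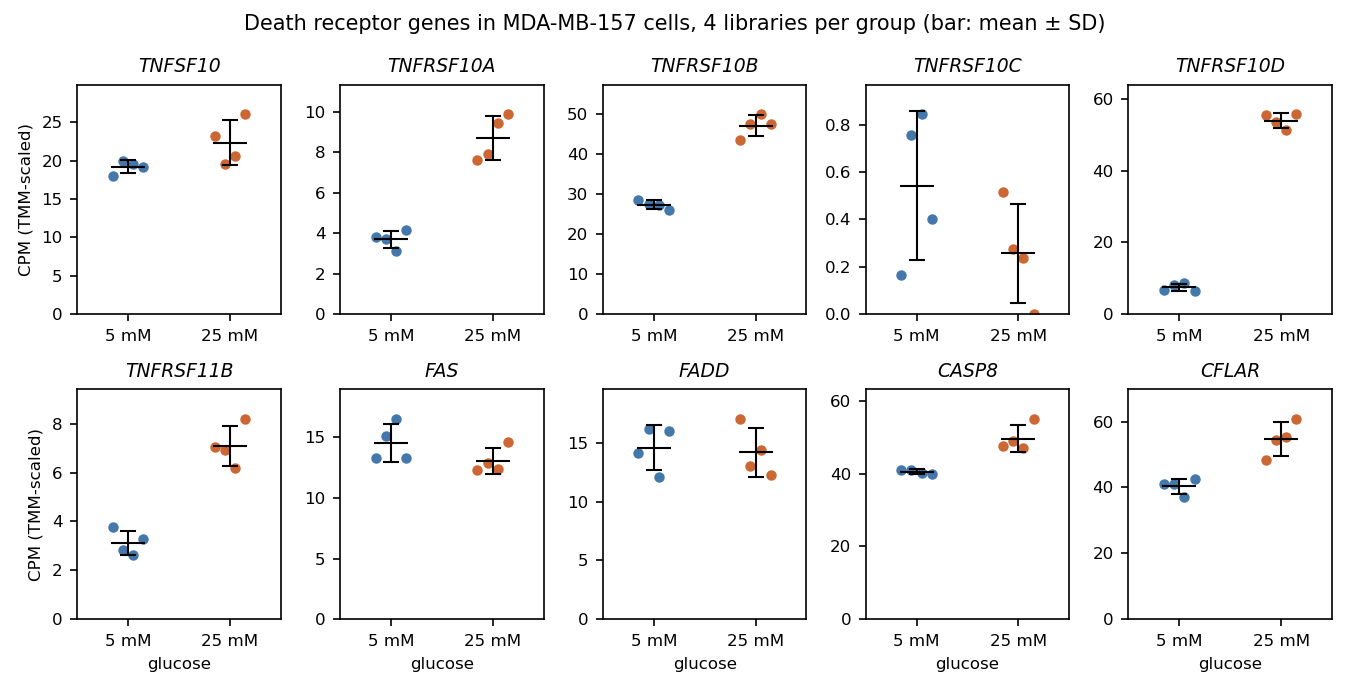
CPM of each of the 10 genes in the 4 libraries at 5 mM and the 4 at 25 mM glucose, on linear axes from 0 that differ between panels, with the mean ± SD. The groups are apart for TNFRSF10A, TNFRSF10B, TNFRSF10D, TNFRSF11B, CASP8 and CFLAR, and they overlap for TNFSF10, TNFRSF10C, FAS and FADD.

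The ligand, TNFSF10 (ENSG00000121858.11, chr3:172505508-172523430 on GRCh38), was measured at 18, 20, 19.5 and 19.2 CPM in the low glucose libraries and at 23.2, 19.5, 20.6 and 26.0 CPM in the high glucose libraries. The high glucose libraries spread more widely, and the lowest of them lay within the low glucose range. The mean went from 19.2 ± 0.857 to 22.3 ± 2.90 CPM, a log2 change of 0.20 ± 0.09 (SE). Without high glucose replicate 4 this was 0.13, and without high glucose replicate 2 it was 0.26.

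TNFRSF10B, or DR5, is the signaling receptor with the higher level per length in these cells, and it lies in the receptor gene cluster on chromosome 8 (ENSG00000120889.13, chr8:23020133-23069031). It was at 28.6, 27.7, 27.4 and 26.1 CPM at low glucose and at 43.6, 47.5, 50 and 47.5 CPM at high glucose. Every high glucose library lay above every low glucose library. The spread of the 4 low glucose values was 3.79% of the mean, where counting alone gives 5.43%. The means were 27.4 ± 1.04 and 47.1 ± 2.63 CPM, a log2 change of 0.76 ± 0.05 (SE). The value rested on 322 to 358 estimated reads per library at low and 534 to 618 at high glucose.

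TNFRSF10A, or DR4, the other signaling receptor (ENSG00000104689.9, chr8:23190452-23225102), was at 3.83, 3.73, 3.14 and 4.15 CPM at low glucose and at 7.64, 7.94, 9.43 and 9.87 CPM at high glucose. The groups were apart, and of the high glucose libraries replicate 1 had the lowest value, 0.841 of the mean of the other 3. The means were 3.71 ± 0.421 and 8.72 ± 1.09 CPM, a log2 change of 1.04 ± 0.11 (SE). With 37 to 57 reads per library at low glucose, this receptor was counted less precisely than TNFRSF10B. Exons annotated on the opposite strand overlap both genes (RHOBTB2 for TNFRSF10B, TNFRSF10A-AS1 and TNFRSF10A-DT for TNFRSF10A), and since the use of strand in the counting of this table is not given in the sources used here, reads of the partners cannot be told apart.

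TNFRSF10D, or DcR2, the decoy with a truncated death domain (ENSG00000173530.6, chr8:23135588-23164027), was at 6.67, 8.03, 8.58 and 6.56 CPM in the low glucose libraries and at 55.4, 53.4, 51.2 and 55.6 CPM in the high glucose libraries. The lowest high glucose value was far above the highest low glucose value, and the high glucose libraries lay close together. The means were 7.46 ± 1.0 and 53.9 ± 2.06 CPM, a log2 change of 2.71 ± 0.08 (SE). In reads, the gene had 80 to 101 per library at low and 621 to 785 at high glucose. Its spread between high glucose libraries was 3.82% of the mean, where counting alone gives 3.86%, and at low glucose 13.5% against 10.5%. No other annotated gene overlaps its exons. Of the 31-base words of its transcript, 1.17% occur in another of the 4 TRAIL receptors and 4.365% in any other gene.

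TNFRSF10C, or DcR1, the decoy held by a lipid anchor (ENSG00000173535.14, chr8:23102921-23117445), was near the detection limit in both groups. It was at 0.167, 0.758, 0.843 and 0.401 CPM at low glucose and at 0.514, 0.275, 0.238 and 0 CPM at high glucose, which is between 0 and 9.92 estimated reads. The groups overlapped, a difference was not detectable at this depth, and the library at 0 allows up to 0.267 CPM. Of the 31-base words of its transcript, 33.1% occur in another annotated gene, so its reads may be shared and its level is uncertain. Exons of ENSG00000284948 and ENSG00000284956 overlap it on the same strand.

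TNFRSF11B, or osteoprotegerin, a secreted receptor for RANKL and TRAIL on the same chromosome but outside the cluster (ENSG00000164761.9, chr8:118923557-118951885), was at 3.75, 2.82, 2.63 and 3.28 CPM at low glucose and at 7.06, 6.93, 6.19 and 8.18 CPM at high glucose. All high glucose libraries lay above all low glucose libraries. The means were 3.12 ± 0.501 and 7.09 ± 0.821 CPM, a log2 change of 0.98 ± 0.11 (SE).

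FAS, the receptor for Fas ligand (ENSG00000026103.22, chr10:88964050-89017059), went the other way by less than the spread between libraries. It was at 13.3, 15.1, 16.5 and 13.3 CPM at low glucose and at 12.3, 12.9, 12.4 and 14.6 CPM at high glucose, and the ranges overlapped. The log2 change was -0.14 ± 0.09 (SE), and -0.09 without low glucose replicate 3. FADD, the adaptor shared by FAS and the TRAIL receptors (ENSG00000168040.4, chr11:70203296-70207390), was at 14.1, 16.2, 12.1 and 16 CPM at low and at 17.0, 13.0, 14.4 and 12.3 CPM at high glucose. Its log2 change was -0.04 ± 0.12 (SE), and its sign turned when low glucose replicate 2 (0.0062) or high glucose replicate 4 (0.02) was left out and under quantile normalization (0.05).

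CASP8, the initiator caspase of the complex (ENSG00000064012.21, chr2:201233463-201287711), was at 41.1, 41.1, 40.2 and 39.9 CPM at low glucose and at 47.6, 49.1, 47.0 and 55.0 CPM at high glucose. The groups did not overlap, and the low glucose libraries spread by 0.609 CPM (SD) around 40.6. That is 1.5% of the mean, where counting alone gives 4.47%, so the closeness is not a measure of precision. The high glucose mean was 49.7 ± 3.65 CPM, a log2 change of 0.28 ± 0.05 (SE). CFLAR, which encodes the caspase-8 regulator c-FLIP (ENSG00000003402.20, chr2:201116164-201176687), was at 40.9, 40.9, 37.2 and 42.6 CPM at low and at 48.4, 54.3, 55.4 and 60.7 CPM at high glucose. The groups were again apart, with means of 40.4 ± 2.29 and 54.7 ± 5.05 CPM and a log2 change of 0.43 ± 0.07 (SE). The ratio of CFLAR to CASP8 within a library, taken on CPM, was 0.925 to 1.07 at low and 1.02 to 1.18 at high glucose, so these ranges overlapped. Of the 31-base words of the CASP8 transcript, 14.5% occur in another gene, and of those of CFLAR 15.4%. Exons on the opposite strand overlap FAS (ACTA2), FADD and CFLAR (CFLAR-AS1), with the same uncertainty as for TNFRSF10A and TNFRSF10B. Exons annotated on the same strand overlap CASP8 (ENSG00000289698) and CFLAR (ENSG00000234431), and strand cannot separate reads there.

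**Figure D2:**
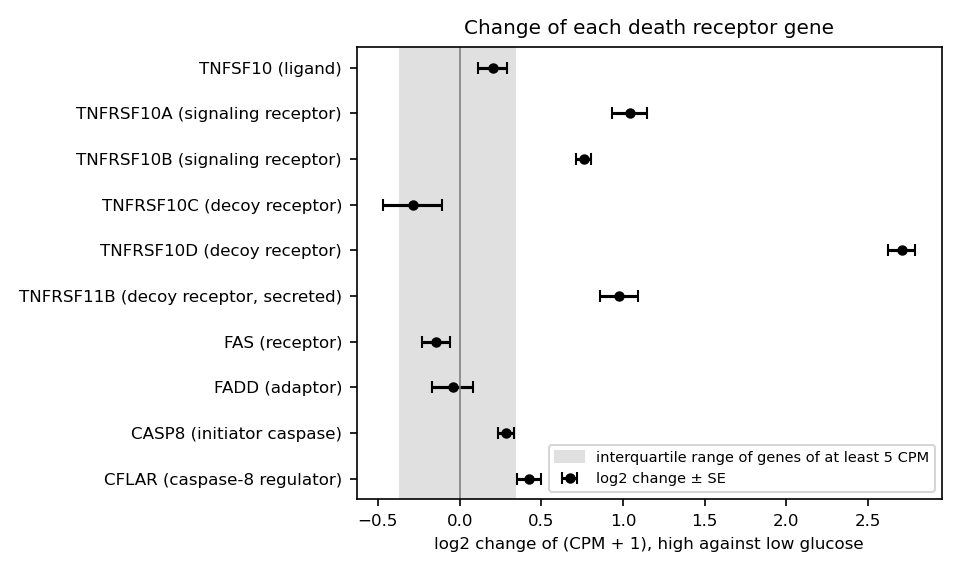
Log2 change of (CPM + 1) at high against low glucose with its SE for each of the 10 genes, over the band that marks the interquartile range of the 11297 genes of at least 5 CPM (-0.36 to 0.34). TNFRSF10D, at 2.71, lies farthest from the band, TNFRSF10A, TNFRSF11B, TNFRSF10B and CFLAR lie to its right, and the other genes lie within it.

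Divided by transcript length (the canonical GENCODE transcript), the receptor transcripts had another make-up at high glucose. The summed level of the 4 TRAIL receptors was 10.7 ± 0.425 CPM per kb (SD, n = 4) at low and 30.5 ± 0.647 CPM per kb at high glucose. The signaling receptors TNFRSF10A and TNFRSF10B together had 8.24 ± 0.259 and 15 ± 0.982 CPM per kb, and the decoys TNFRSF10C and TNFRSF10D 2.50 ± 0.501 and 15.4 ± 0.600 CPM per kb. Of the difference in the sum, TNFRSF10D accounted for 66.6%, TNFRSF10B for 25.0% and TNFRSF10A for 9.43%. The decoy share of the sum was 19.0%, 25.3%, 27.5% and 21% in the low glucose libraries and 53.8%, 50.8%, 47.8% and 50.3% in the high glucose libraries. The decoys thus made up a minority of the receptor transcripts in each low glucose library and about as much as the signaling receptors in each high glucose library. The mean share went from 23.2% ± 3.90 to 50.7% ± 2.48 (SD, n = 4). That of TNFRSF10B went from 63.9% ± 2.59 to 38.7% ± 1.79, although its own level was higher at high glucose. The ratio of TNFRSF10D to TNFRSF10B per length was 0.308 ± 0.0413 at low and 1.30 ± 0.115 at high glucose. These shares use the same contrast by which the genes were picked and are given without a test, and protein at the cell surface was not measured.

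**Figure D3:**
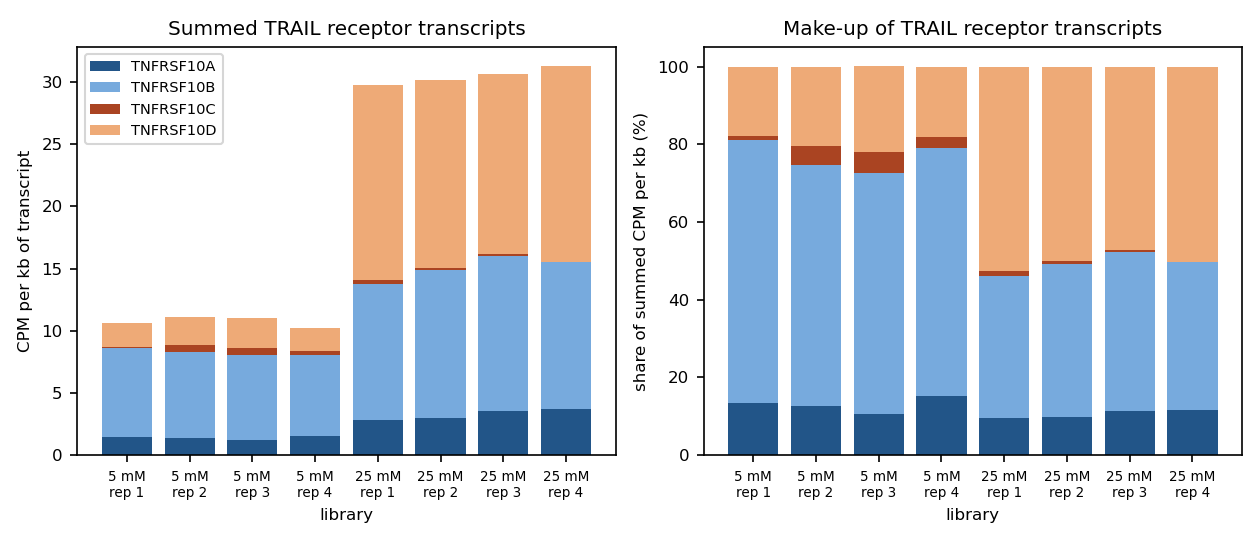
Stacked bars of the 4 TRAIL receptor transcripts in each of the 8 libraries, as CPM per kb of transcript (left) and as percent of their sum (right). The bars at 25 mM reach 29.8 to 31.3 CPM per kb against 10.2 to 11.1 at 5 mM, and TNFRSF10D takes 47.2% to 52.6% of each against 17.8% to 22.0%.

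Ordered by level per length at low glucose, CASP8 came first at 15.3 ± 0.229 CPM per kb, followed by TNFSF10 at 10.2, FADD at 8.56, TNFRSF10B at 6.86, FAS at 5.68, CFLAR at 2.76, TNFRSF10D at 2.11, TNFRSF11B at 1.49, TNFRSF10A at 1.38 and TNFRSF10C at 0.389 CPM per kb. Of these neighbors in the order, FADD and TNFRSF10B overlapped over the libraries, and so did TNFRSF11B and TNFRSF10A. The canonical transcript of CFLAR is 14612 bases long, against 2659 for CASP8, and the place of CFLAR rests on that length. In CPM the low glucose means were 40.4 for CFLAR and 40.6 for CASP8. Which transcripts of these genes the cells used was not tested. At high glucose CASP8 was again first, at 18.7 ± 1.37 CPM per kb, and TNFRSF10D stood in place 2 at 15.3 ± 0.583 instead of place 7. Below it came TNFSF10 at 11.9 and TNFRSF10B at 11.8, whose libraries overlapped, then FADD at 8.29 and FAS at 5.09 CPM per kb. CFLAR at 3.74 overlapped TNFRSF11B at 3.4 CPM per kb, which overlapped TNFRSF10A at 3.24, and TNFRSF10C was last and apart at 0.184.

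The 4 TRAIL receptor genes lie side by side within chr8:23020133-23225102, so the other genes around them were examined for a difference of the whole region. Of 12 further genes of at least 1 CPM with a midpoint within 500 kb of the cluster, 8 passed an adjusted p of 0.05 (limma), 3 higher and 5 lower. The median log2 change of the 12 was near 0 (-0.0007). In the same fit 46.8% of all genes passed, and 66.9% of the genes of at least 5 CPM, so nothing is read from this count. BIN3 rose with a log2 change of 0.40 (adjusted p = 0.0281) and RHOBTB2 with one of 0.34 (adjusted p = 0.0185). BIN3 lost its call in most refits with a library left out, and its libraries overlapped, and RHOBTB2 lost its call without high glucose replicate 2 (0.32). SORBS3, which encodes the adhesion protein vinexin, fell by 0.77 (adjusted p = 0.000116), PDLIM2 by 0.66 (adjusted p = 0.00476), R3HCC1 by 0.55 (adjusted p = 0.000618), ENTPD4 by 0.29 (adjusted p = 0.0392) and LOXL2, a lysyl oxidase, by 0.20 (adjusted p = 0.00172). ENTPD4 lost its call in most refits that left out a library. C8orf58, CCAR2, CHMP7 and SLC25A37 did not pass, with log2 changes between -0.05 and 0.24. CHMP7 lies next to TNFRSF10A and was at 28.7 ± 1.39 and 27.6 ± 0.445 CPM. The log2 changes of BIN3 and RHOBTB2 were below those of TNFRSF10A, TNFRSF10B and TNFRSF10D, while the fall of SORBS3 was similar in size to the difference of TNFRSF10B.

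**Figure D4:**
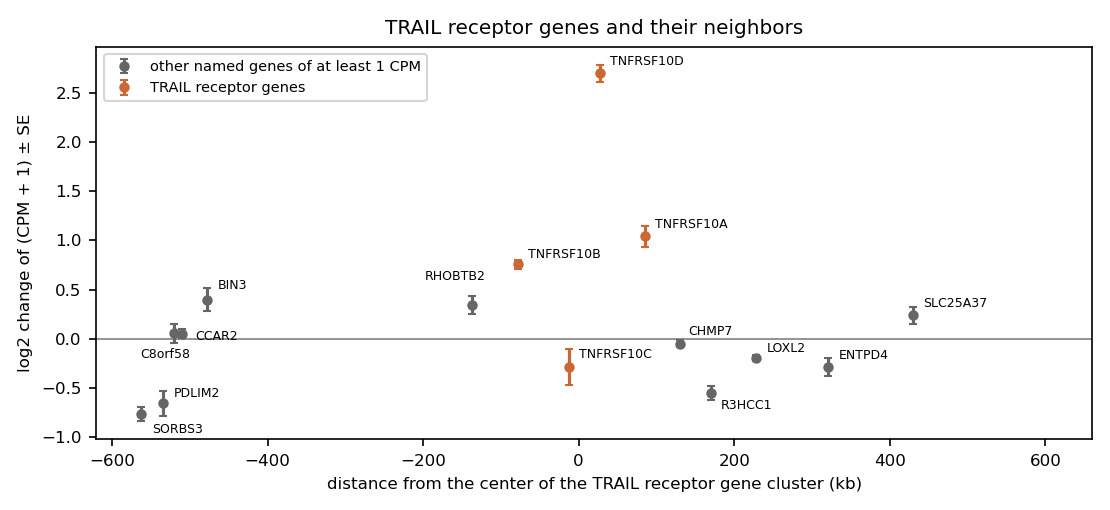
Log2 change of (CPM + 1) with its SE against distance in kb from the center of the receptor cluster, for the 4 TRAIL receptor genes and for the other genes of at least 1 CPM that the text names. TNFRSF10D, TNFRSF10A and TNFRSF10B lie above every other gene plotted, at 2.71, 1.04 and 0.76, and TNFRSF10C between them lies at -0.29.

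The rest of the pathway was followed in 5 lists. Of the other ligands of the TNF superfamily, 12 of 17 were in the table, 8 of them under 1 CPM, and limma called 0 of 12 at an adjusted p of 0.05, with 1 at an unadjusted p under 0.05. That one was TNFSF15, at 0.956 ± 0.181 CPM in low glucose and 1.51 ± 0.490 CPM in high glucose (log2 change 0.35, adjusted p = 0.0938), named here after its values were seen. No other tool was run on the lists. Of all genes 46.8% passed. The median log2 change of the ligand list was 0.01. FASLG, the ligand of FAS, had no line in the table and was not analysed here.

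Of the other TNF receptors, 17 of 23 were in the table, 7 of them under 1 CPM. Of the 17, 11 passed, 3 higher and 8 lower at high glucose, with a median log2 change of -0.21. This is 64.7%, against 46.8% of all genes and 66.9% of genes of at least 5 CPM. RELT, a receptor without a death domain, rose from 5.88 ± 1.46 to 18.9 ± 3.32 CPM (log2 change 1.54, adjusted p = 0.000616). TNFRSF19, or TROY, fell from 55.1 ± 2.09 to 19.0 ± 0.691 CPM (log2 change -1.49, adjusted p = 8.55e-07). NGFR, the low-affinity neurotrophin receptor, fell from 11.7 ± 0.737 to 3.70 ± 0.490 CPM (log2 change -1.44, adjusted p = 1.93e-05), and TNFRSF25, or DR3, from 10.5 ± 1.32 to 4.06 ± 0.686 CPM (log2 change -1.18, adjusted p = 0.000246). NGFR and TNFRSF25 carry death domains, as do TNFRSF1A and TNFRSF21 on the same list. TNFRSF1A, the main TNF receptor, fell from 33.3 ± 1.11 to 23.0 ± 0.877 CPM (log2 change -0.52, adjusted p = 3.34e-05), and TNFRSF21, or DR6, from 91.8 ± 4.63 to 62.0 ± 1.5 CPM (log2 change -0.56, adjusted p = 2.87e-05). All 4 of these were thus lower at high glucose where TNFRSF10A and TNFRSF10B were higher. This group of 4 was put together after the values were seen. For FAS, also a death receptor, the groups overlapped (log2 change -0.14).

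Among 23 adaptors and ubiquitin enzymes of the receptor complexes, 14 passed, 10 higher and 4 lower, and the median log2 change was 0.07. The share was 60.9%, against 46.8% of all genes and 66.9% of genes of at least 5 CPM. PEA15, a death effector domain protein that can bind FADD and caspase-8, rose from 222 ± 7.35 to 393 ± 19.6 CPM (log2 change 0.82, adjusted p = 8.67e-06). DEDD2, another protein with a death effector domain, rose from 5.68 ± 0.271 to 10.2 ± 0.764 CPM (log2 change 0.75, adjusted p = 9.52e-05). CYLD, a deubiquitinase, rose from 20.3 ± 0.681 to 34.4 ± 1.23 CPM (log2 change 0.73, adjusted p = 6.79e-06). SHARPIN, a subunit of the linear ubiquitin ligase, fell from 28.2 ± 1.67 to 17.2 ± 3.12 CPM (log2 change -0.69, adjusted p = 0.00243). CASP10, the initiator caspase nearest to CASP8 in sequence, was at 1.75 ± 0.696 and 1.11 ± 0.321 CPM and did not pass (adjusted p = 0.201). CASP10 was named after its values were seen.

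Downstream of the complex, 8 of 16 caspases and genes of the mitochondrial arm passed, with a median log2 change of 0.02. This is 50%, against 46.8% of all genes and 66.9% of genes of at least 5 CPM, the level of most of the list. Of the 8, 4 were higher and 4 lower, but under median-of-ratios scaling the split was 6 higher and 2 lower. CYCS, which encodes cytochrome c, rose from 315 ± 9.14 to 488 ± 43.4 CPM (log2 change 0.63, adjusted p = 0.000183). BID, the substrate by which caspase-8 reaches the mitochondria, rose from 12.3 ± 1.04 to 15.9 ± 1.59 CPM (log2 change 0.34, adjusted p = 0.0138). CASP6, an effector caspase, fell from 14.4 ± 0.549 to 8.97 ± 0.945 CPM (log2 change -0.63, adjusted p = 0.000346). RIPK3, the kinase of necroptosis, was listed at 0 in all 8 libraries.

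Of 10 genes for factors known to regulate death receptor genes, 5 passed, 4 higher and 1 lower, with a median log2 change of 0.05. The share was 50%, against 46.8% of all genes and 66.9% of genes of at least 5 CPM. ATF4, a factor of the integrated stress response, rose from 253 ± 6.91 to 306 ± 30.2 CPM (log2 change 0.27, adjusted p = 0.0140), and its highest value was that of high glucose replicate 1. RELA, the NF-kappaB subunit p65, rose from 45.4 ± 2.35 to 51.7 ± 2.09 CPM (log2 change 0.18, adjusted p = 0.0119). MYC was at 34.9 ± 1.66 and 40.9 ± 4.05 CPM (log2 change 0.22, adjusted p = 0.0437), and its call was lost in most refits that left out a library.

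**Figure D5:**
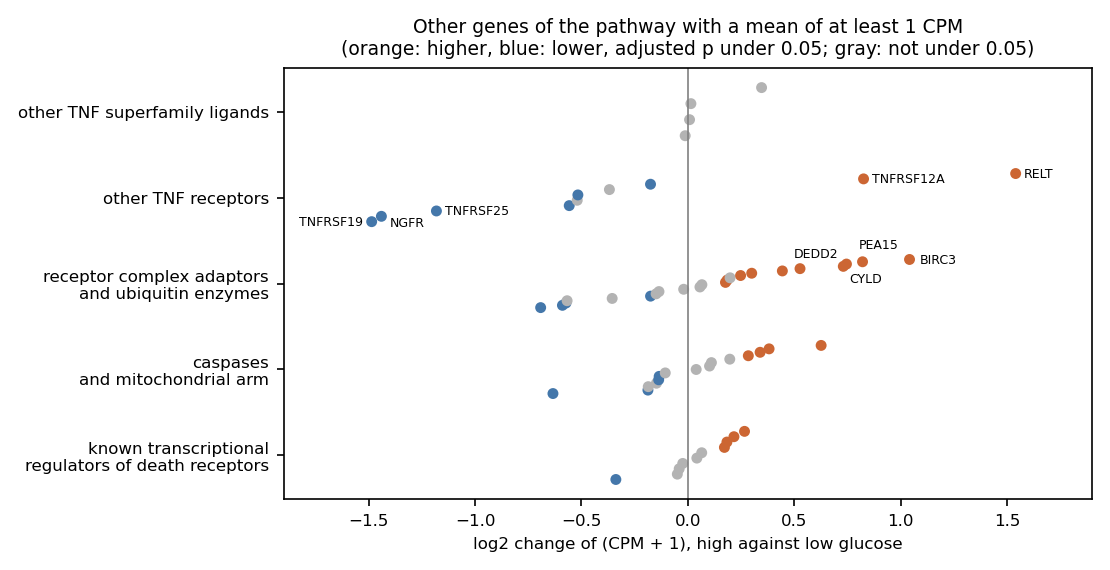
Log2 change of (CPM + 1) at high against low glucose for each gene of the 5 pathway lists with a mean of at least 1 CPM, 1 point per gene, colored where the adjusted p (limma) was under 0.05. The receptors spread widest, from TNFRSF19 at -1.49 to RELT at 1.54, and the ligands show no colored point.

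Among the genes whose log2 levels followed TNFRSF10D most closely over the 8 libraries, of 11296 other genes of at least 5 CPM, were SUZ12, FGF2, ELK1 and FAM107B. Their Pearson r with TNFRSF10D ranged from 0.9983 to 0.9987. Since the libraries fall into 2 groups, such an r mostly records that both genes differed between the groups by much more than within them, and 1771 genes, or 15.7%, had an r over 0.95. FGF2, a fibroblast growth factor, differed by a similar amount, from 40.4 ± 2.10 to 254 ± 14.1 CPM (log2 change 2.62). SUZ12, ELK1 and FAM107B had log2 changes of 0.76, 0.94 and 0.82. Among the other 9 death receptor genes, r with TNFRSF10D was 0.98 for TNFRSF10B, 0.96 for TNFRSF10A, 0.95 for TNFRSF11B, 0.92 for CASP8, 0.90 for CFLAR and 0.69 for TNFSF10, and it was below 0 for FADD, TNFRSF10C and FAS.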

How the data were processed

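RNA was sequenced in 8 libraries of MDA-MB-157 cells. The authors deposited 1 table of CPM values scaled with TMM factors, and their processing notes name edgeR and hg38, whereas their methods, written first for tumors, name hg19. The counting tool and its use of strand are not given in the sources used here. Low values lay on steps of 1 read, but many were fractions of it, so whole reads were not recovered and no count test was run. Reads were estimated as value over step, and intervals or floors from them cover counting error only. Of 21077 lines, 18 identical pseudoautosomal Y copies were left out. Log2(CPM + 1) was compared by limma 3.58.1 in R 4.3.3 (lmFit, eBayes with trend, 2-sided), with Benjamini-Hochberg adjustment over 21059 genes and a threshold of 0.05. Fold changes on this scale understate those of low genes, and "times" refers to ratios of mean CPM. p-values measure only the spread between these samples, which may be technical. The steps were tested on simulated data. The 10 genes and the lists were chosen with earlier results of these data known. Named genes are the 10 genes, up to 4 per list with the largest change among those passing with at least 5 CPM, genes of at least 1 CPM within 500 kb of the receptor cluster, and the 5 most like TNFRSF10D. Of the genes this rule selects, some are not reported here. Coordinates and promoter windows are from RefSeq on GRCh38.p14, and transcript lengths and shared 31-base words from GENCODE release 44 on GRCh37, so these describe the annotation. Alternatives were another pseudocount, minimum levels, scalings, removal of a length trend within each group, a replicate block and leaving out each library.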

Additional observations from a re-analysis of the deposited data

Results flagged for a closer look

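In 88 groups of 4 libraries, made of the named genes and the decoy share of the TRAIL receptors at low and at high glucose, 5 had 1 library far from the other 3, where chance gives about 1 in 20. None of the 10 death receptor genes was among them. ATF4 was at 351 CPM in high glucose replicate 1, against 286 to 294 CPM in the other high glucose libraries. PDLIM2 was at 8.61 CPM in the same library, against 5.51 to 5.86 CPM. CHMP7 was at 26.9 CPM in high glucose replicate 4, against 27.7 to 27.9 CPM. In low glucose replicate 1, CYLD was at 21.3 CPM, against 19.9 to 20.1 CPM, and SORBS3 at 35.4 CPM, against 34.1 to 34.3 CPM.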

How the results depend on the processing

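The 6 death receptor genes that passed kept their direction and their call in every alternative run, and the log2 change of TNFRSF10D ranged from 2.65 to 2.85. Under the replicate block, the minimum levels and the length trend removal, direction was fixed and only the call could change. The length trend was removed within each group, so a length bias between the groups was not addressed. The count of the 10 genes that passed was 6 or 7, and it was 7 where TNFSF10 passed, under quantile normalization (0.26) and without high glucose replicate 2 (0.26). FADD changed sign under quantile normalization (0.0464), without low glucose replicate 2 (0.0062) and without high glucose replicate 4 (0.0155), with a range of -0.1276 to 0.0155 over libraries left out. C8orf58 changed sign without high glucose replicate 3, with a range of -0.0213 to 0.1097. For FADD and C8orf58 the cause was not tested. The decoy share differed by 27.5 percentage points, and by 26.1 to 28.9 under the alternatives. The number of genes that passed was 8120 to 10585, but the runs differed in the genes tested. The 8120 were of 11297 genes of at least 5 CPM, and the 10585 of 20839 genes with a transcript length. Of the other TNF superfamily ligands, 1 passed under quantile normalization, and leaving out 1 library gave 0 to 1, with 1 without high glucose replicate 4. The other lists gave 8 to 12 receptors, 10 to 15 adaptors and ubiquitin enzymes, 7 to 10 caspases and mitochondrial genes and 4 to 5 regulators. These ranges include the minimum levels, which can leave fewer genes of a list. All 8 receptors tested at a minimum of 5 CPM passed. Among 33 other named genes and 495 refits, 24 refits lost a call, of BIN3, ENTPD4, MYC, RELA or RHOBTB2, and 6 gained one, of SLC25A37. The labels number the replicates 1 to 4 in both groups, but same-numbered libraries did not deviate together (r -0.0403 to 0.0692 over 11297 genes), and not every library correlated best with its own number. With the replicate number as a block, 8921 genes and 6 of the 10 passed, and BIN3, RELA and RHOBTB2 did not pass. Depth limits TNFRSF10C, at 0 to 9.92 reads.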
